A study of Mus musculus with 4 samples.

Results

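Müller glia of the mouse retina were compared with 4 classes of retinal neuron in long-read counts of transcript isoforms. The counts of Müller glia (column MG) were set against the unweighted mean of 4 neuron columns: amacrine (AC), bipolar (BC), cone (Cone) and rod (Rod). The readouts were the level of each gene and the share of each gene's counts held by each of its isoforms. Of 16702 genes and loci listed, 5216 reached 10 counts per 1000000 (CPM) in MG or in the neuron mean and entered the comparison of levels. For isoforms, 3270 genes had 100 or more counts in MG and in at least 2 of the 4 neuron columns, and the 2073 of these with 2 or more isoforms were compared. All 4 neuron columns contributed for 1725 genes, 3 columns for 245 and 2 columns for 103. At the lower limit, 6 genes with 100 counts in MG were inside (Adck5, Cxxc1, Banp, Fubp1, H2afj and Rpl17), with largest differences in isoform share from 1.87 to 23.2 percentage points, and 12 genes with 99 counts were left out.

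Retinas of the inbred strain C57BL6/J were dissociated with papain, and all mice were male and wild-type. Of 4 libraries, 2 had no enrichment, 1 of them from postnatal day 40 and the other with no age in its labels. The others were a library labelled CD73 enrichment from postnatal week 8 and a library labelled CD90.2 enrichment from postnatal month 4. Photoreceptors carry CD73 on their surface and many neurons carry CD90.2; the protocol describes depletion of the first and selection of the second. The deposited columns name classes and no library, so each class is 1 sample. There is no replicate error and no test between classes, and because the libraries behind each column are not given, cell class cannot be told apart from library or age. Differences are described by size, and the 95% intervals given cover counting error only. The depth was 6133094 counts in MG, 48248340 in AC, 29010038 in BC, 7307134 in Cone and 55437340 in Rod. The ganglion cell column (RGC, 3509890 counts) is outside the comparison, and its values are given beside some results.

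Müller glia are the radial glia of the retina and span its whole thickness. They take up glutamate and GABA released by neurons and convert them to glutamine, buffer potassium and water, and take part in the recycling of retinoids for photoreceptors. Neurons and glia also splice many of the same genes differently. Neurons include a set of very short exons, called microexons, which mostly keep the reading frame and lie in genes of vesicle traffic, the cytoskeleton and synapses. Their inclusion is known to depend on neuronal RNA-binding proteins such as Srrm4 and Rbfox proteins, whereas Ptbp1, a repressor of neuronal exons, is typical of non-neuronal cells.

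The MG column carried the genes that define Müller glia. All 10 markers (Glul, Rlbp1, Slc1a3, Aqp4, Kcnj10, Sox9, Vim, Apoe, Car14 and Crym) were highest in MG, and their summed level was 48976 CPM there against 498 to 1412 CPM in the 4 neuron columns. Apoe made up most of each of these sums. Markers of other cells were present as well. Summed rod markers reached 7338 CPM in MG, 9.66% of the 75930 CPM in the Rod column. Pigment epithelium markers summed to 8835 CPM, of which Ttr was 8443 CPM, against 18.6 to 62.5 CPM in the neuron columns, with Rpe65 at 358 counts and Best1 at 0. Microglia markers summed to 1923 CPM against 68.3 to 863 CPM, pericyte markers to 614 CPM against 6.63 to 19.9, endothelial markers to 137 CPM against 0.539 to 7.65, astrocyte markers to 120 CPM against 2.74 to 40.0, and red blood cell genes to 12355 CPM against 27.5 to 2786. All 8 microglia markers, all 4 pericyte and all 4 endothelial markers in the table, and 6 of 7 pigment epithelium markers were highest in MG. Bipolar markers summed to 1090 CPM in MG against 35316 CPM in BC, cone markers to 586 CPM against 101482 in Cone, and amacrine markers to 30.8 CPM against 1144 in AC. The part of these cells and RNAs in the results below was not tested, except for rod RNA, whose estimated share was subtracted as an alternative.

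Of the 5216 genes compared, 762 (14.6%) were at least 4-fold higher in MG than in the neuron mean and 648 (12.4%) at least 4-fold lower. The remaining 3806 were within 4-fold. The median log2 ratio over all genes was -0.31, and it was -0.20 and -0.10 after scaling by trimmed means (TMM) and by the median of ratios. Of the 648 lower genes, 368 were below each of the 4 neuron columns, and the others were low only against a mean carried by part of the columns. After subtraction of rod RNA, by the same fraction for all genes, the counts were 808 higher and 876 lower. Of the genes named here, 7 with log2 ratios near -2 came within 4-fold after scaling by the median of ratios: Sod1, Abcg1, Pde6a, Khdrbs1, Hk1, Sag and Tubb3, the first of them at -1.86.

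**Figure D1:**
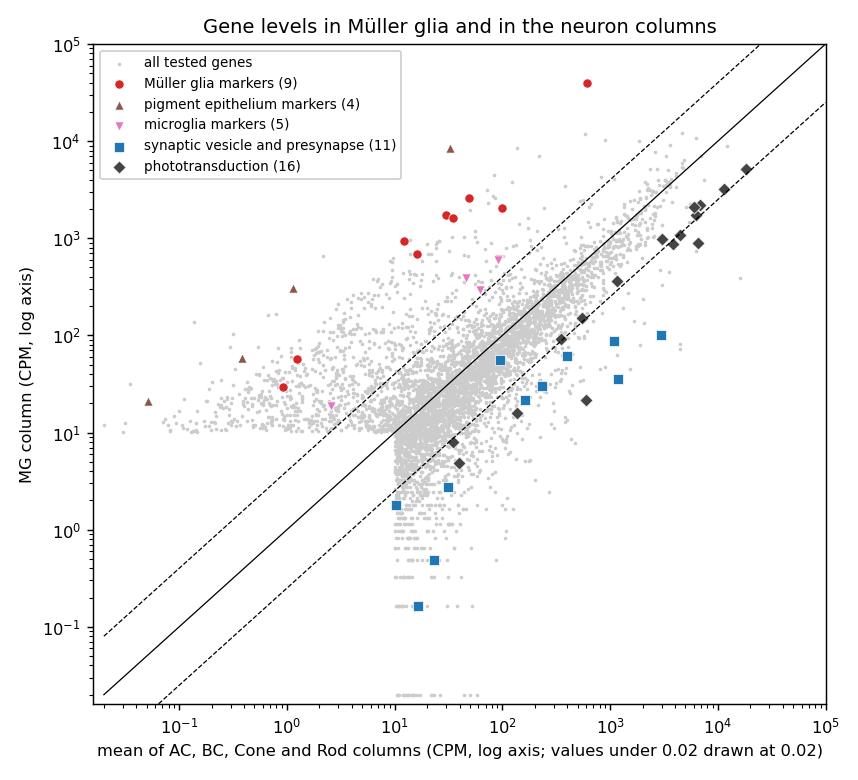
Level of each gene in MG (vertical axis, CPM, log scale) against the mean of AC, BC, Cone and Rod (horizontal axis, CPM, log scale). Grey points are the 5216 genes compared, coloured points are members of the named lists, the solid line marks equal levels and the dashed lines a 4-fold difference. The Müller glia markers lie far above the upper dashed line together with the pigment epithelium markers, and 10 of the 11 synaptic genes lie below the lower one. Values under 0.02 CPM are drawn at 0.02.

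Serpine3, a member of the serpin family, had the highest ratio among genes of at least 100 CPM in MG. It stood at 136 CPM in MG (95% interval 127 to 146), 0 in AC and Cone, 0.138 CPM in BC and 0.415 CPM in Rod. The log2 ratio was 9.94 (9.37 to 10.5). Aqp4, the water channel of Müller glial endfeet, stood at 935 CPM in MG and between 8.35 and 16.4 CPM in the neuron columns, a log2 ratio of 6.24. The group of the 12 highest also held Espn, an actin-bundling protein, at 209 CPM against 1.51 to 5.07 CPM, and Kcne1l, a potassium channel subunit, at 188 CPM against 1.64 to 3.54 CPM. Sbspon stood at 632 CPM against 5.75 to 14.4 CPM. Mgp, an extracellular matrix protein that inhibits calcification, stood at 961 CPM against 2.92 to 36.3 CPM.

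Several of the 12 highest are known from cells other than Müller glia. Rdh5 and Rgr act in the visual cycle of the pigment epithelium, and Rdh5 is known in Müller glia as well. They stood at 654 and 304 CPM in MG, with log2 ratios of 8.25 and 8.06. Slc16a8, a lactate transporter of the pigment epithelium, stood at 165 CPM in MG and at most 2.17 CPM in a neuron column. Ttr, which carries retinol and thyroxine, reached 8443 CPM against 17.2 to 58.3 CPM. Acta2 and Tagln, contractile proteins of smooth muscle and pericytes, stood at 102 and 162 CPM with log2 ratios of 8.35 and 7.91. The pigment epithelium and pericyte marker sums given above were 8835 and 614 CPM in MG, and their part in these ratios was not tested.

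The list counts in this and the following paragraphs stand beside 14.6% higher and 12.4% lower over all 5216 genes compared. Genes of glutamate uptake and of retinoid handling were partly higher in MG. Of 10 genes of glutamate and GABA uptake and recycling, 4 reached the level limit (median log2 ratio 1.97), and 2 of these were 4-fold higher. Glul, glutamine synthetase, stood at 2049 CPM in MG and at 195 CPM in AC, 49.3 in BC, 32.3 in Cone and 117 in Rod, a log2 ratio of 4.38. Slc1a3, the glial glutamate transporter, stood at 56.6 CPM against 0.274 to 2.86 CPM, a log2 ratio of 5.51. Slc1a2, another glutamate transporter, was within 4-fold of the neuron mean (20.2 CPM in MG, 0.166 in AC, 15.2 in BC, 120 in Cone and 40.4 in Rod), with MG below the photoreceptor columns. Of 8 retinoid genes compared (median 2.41), 4 were higher, 1 was lower and 3 were neither. The higher ones included Rlbp1, which binds retinal in Müller glia and pigment epithelium (1736 CPM against 20.9 to 46.1), Aldh1a1, which makes retinoic acid (235 CPM against 0.912 to 6.93), and Rdh10, a retinol dehydrogenase (39.5 CPM against 0.274 to 1.12). The lower one was Crabp1, a retinoic acid carrier, whose neuron mean came from AC at 400 CPM. MG held 23.5 CPM of it and each of the other neuron columns held less, at 4.76 to 17.8 CPM, so that the log2 ratio was -2.19 with AC and 1.25 without it.

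Of 8 potassium, water and pH genes compared (median 1.12), 4 were higher, 3 lower and 1 neither. Beside Aqp4, the higher ones included Car14, a membrane carbonic anhydrase (682 CPM against 11.2 to 20.6), and Atp1b3, a pump beta subunit (119 CPM against 2.72 to 31.1). Kcnj10, the potassium channel of Müller glia, had 39 counts in MG, or 6.36 CPM, too few for the level limit, and at most 0.234 CPM in a neuron column. Atp1b2, a pump beta subunit, and Dmd, dystrophin, were lower in MG, with log2 ratios of -3.60 and -5.21. Aqp1, another water channel, was lower only through the Rod column, and its log2 ratio was 0.54 without it.

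Lipid genes were among the most abundant transcripts that differed. Of 10 compared (median 2.67), 5 were higher, 2 lower and 3 neither. Apoe, a lipoprotein component, stood at 39298 CPM in MG, at 692 in AC, 292 in BC, 350 in Cone and 1113 in Rod. Ptgds, prostaglandin D synthase, stood at 8485 CPM against 70.9 to 193. Clu, a secreted chaperone of lipoproteins, stood at 6980 CPM against 125 to 384. Dbi, which binds acyl-CoA esters, stood at 11771 CPM against 366 to 984, and Prdx6 at 3822 CPM against 82.9 to 173. Genes of cholesterol synthesis were not among those that passed 4-fold: Hmgcs1 stood at 21.7 CPM against 5.75 to 18.7, and Sqle at 34.1 CPM against 12.5 to 32.4.

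The lower members were Fabp7, a fatty acid carrier whose neuron mean came from the Cone column at 323 CPM, and Abcg1, a cholesterol exporter. Their log2 ratios were -0.09 without Cone and -1.31 without Rod.

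Genes of glycolysis, glycogen and lactate were split (median -0.48), with 3 higher, 3 lower and 11 neither of 17 compared. The genes with the most counts in this list differed by less than 4-fold. Slc2a1, the main glucose transporter of retinal cells, stood at 401 CPM in MG against 12.9 to 55.7. Phgdh, which starts serine synthesis from a glycolytic intermediate, stood at 115 CPM against 2.17 to 15.2, and Pygb, a glycogen phosphorylase, at 19.4 CPM against 1.72 to 4.26. Hk1, Eno2 and Pygm, a hexokinase, an enolase and a glycogen phosphorylase, were lower. For Pygm this rested on the Cone column, without which the log2 ratio was -1.16, and for Hk1 the ratio was -1.61 without Rod and -1.95 without BC. Ldhb and Ldha, the lactate dehydrogenase subunits, were within 4-fold with opposite signs, at log2 ratios of 1.78 and -1.33.

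Transcription factors of glia and of Notch signalling were mostly higher, 7 of 9 compared, with a list median of 4.24. Hes5, a Notch target, stood at 428 CPM against 4.86 to 26.2, and Id1, an inhibitor of basic helix-loop-helix factors, at 917 CPM against at most 47.1 CPM in a neuron column. Sox8 and Sox9 had log2 ratios of 5.47 and 5.01. Of the cytoskeleton, matrix and adhesion list (median 4.12), 11 of 17 were higher, among them Vim, an intermediate filament protein (2571 CPM against 10.8 to 81.9), Cd9, a tetraspanin (4438 CPM against 45.3 to 137), and Col9a1, a collagen chain (239 CPM against 4.52 to 8.00). Gfap, the filament that reactive Müller glia and astrocytes make, stood at 60.5 CPM against 0.0622 to 1.90, and the astrocyte list to which it also belongs summed to 120 CPM in MG. Tubb3, a neuronal tubulin, was the lower member, at 17.6 CPM against 59.3 to 118, with a log2 ratio of -1.88 without BC.

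Immediate early genes, which cells switch on within minutes of a stimulus, were 4-fold higher for 8 of 12 compared, with a median of 2.44 and 0 lower. Jun stood at 422 CPM against 11.6 to 43.4, Fos at 837 CPM against 39.5 to 271 and Socs3 at 121 CPM against 0.974 to 39.3. Of metallothioneins and antioxidant genes (median 1.95), 5 of 10 were higher, with Mt1, a metal-binding protein, at 4317 CPM against 110 to 1664 and Gstm1, a glutathione transferase, at 426 CPM against 11.2 to 19.9. Sod1, superoxide dismutase, was lower, at 91.6 CPM against 169 to 847, with a log2 ratio of -2.02 that was -1.21 without AC and -1.90 after TMM scaling.

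Synaptic genes were lower in MG. Of 11 compared (median -3.51), 10 were at least 4-fold lower and 1 was neither. Sncb, beta-synuclein, stood at 99.9 CPM in MG, 6580 in AC, 3289 in BC, 1448 in Cone and 615 in Rod, a log2 ratio of -4.90. Snap25 and Vamp2, the SNARE proteins of synaptic vesicle fusion, had log2 ratios of -5.05 and -3.64. For Cplx1, a complexin, the log2 ratio was -1.79 without AC, and for Cplx4 it was -1.60 without Rod.

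Phototransduction genes were 4-fold lower for 7 of 16 and within 4-fold for 9 (median -1.89), with log2 ratios from -4.76 (Gnat1, rod transducin) to -1.51 (Rom1, a disc rim protein). MG held more than AC of each of the 16, for example 870 CPM of Sag, rod arrestin, against 55.5 CPM in AC and 9645 CPM in Rod, and without the Rod column the log2 ratios of Pde6a, Pde6b and Cnga1 turned to 0.97, 0.93 and 0.62, and those of Gnat1 and Sag were -1.14 and -1.11. The rod marker sum in MG was 9.66% of that in Rod.

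**Figure D2:**
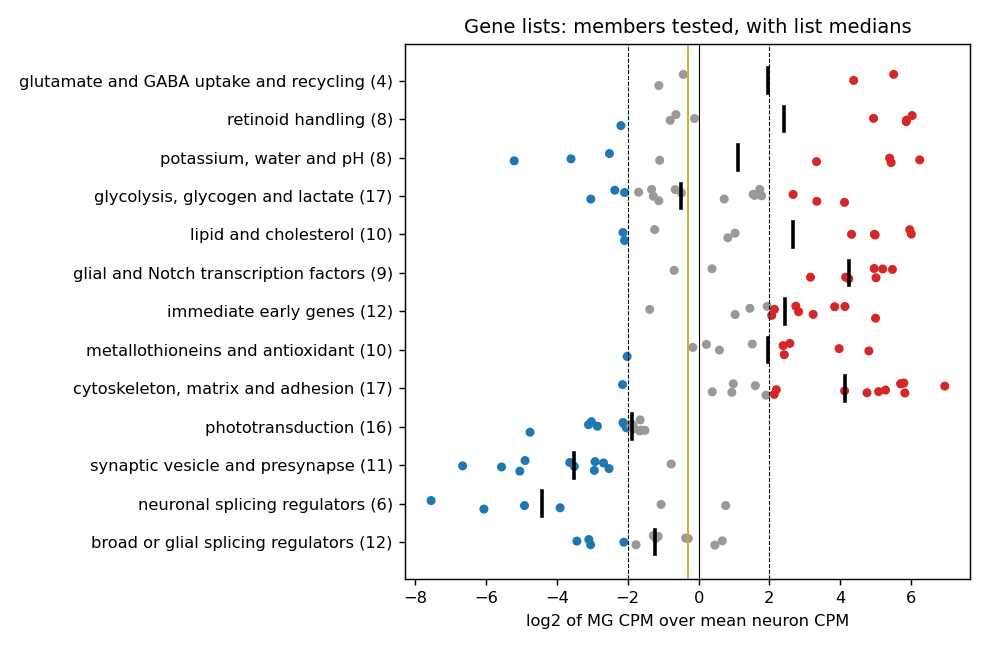
log2 ratio of the MG level to the neuron mean for each compared member of the function lists, with the number of members in parentheses. Red points were at least 4-fold higher in MG, blue points at least 4-fold lower, black bars are list medians and the yellow line is the median of all 5216 genes at -0.31. All compared members of the synaptic and phototransduction lists lie below 0, and none of the glial transcription factors passes 4-fold on the lower side.

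The 8 genes of lowest ratio among those of at least 100 CPM in the neuron mean were each highest in AC or in Cone among the 4 neuron columns. C1ql2, a secreted complement-like protein, had 5 counts in MG, 420 CPM in AC and at most 1.98 CPM in the others, a log2 ratio of -7.02 (-8.28 to -5.75) that became -0.07 without AC. Dusp26, Elmo1, Tac1, Nrsn1 and Atp6v1g2 were likewise highest in AC among these 4 columns, at 879, 319, 493, 706 and 1703 CPM, with 2.45, 0.978, 1.63, 3.26 and 7.83 CPM in MG. The log2 ratio of Tac1 was -1.14 without AC. Arr3 and Opn1sw, cone arrestin and the short-wavelength cone opsin, stood at 413 and 17211 CPM in Cone and at 1.63 and 72.9 CPM in MG, and their log2 ratios were -1.09 and -1.07 without the Cone column.

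The isoform comparison took each gene's counts as 100% in each column, so it compares the makeup of a gene's transcripts and not their amount. Of 2073 genes, 195 (9.41%) had an isoform whose share in MG differed from the neuron mean by 25 percentage points or more, and 60 (2.89%) by 50 points or more. The median of the largest difference per gene was 5.65 points. In 182 of the 195 genes the share in MG lay outside the range of the neuron columns. The 195 were picked by their distance from the mean of the same columns, which favours this. The number is a description, and that over all 2073 genes is not given. The most abundant isoform differed between MG and the neuron mean in 189 of the 2073 genes, and in 118 of the 195. Of the isoforms that gained most in MG, 173 of 195 carried an Ensembl transcript identifier, against 124 of the isoforms that lost most.

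The kinds of structural difference between the isoform that gained most and the isoform that lost most in MG are given for the 195 genes and the 1878 others. A cassette exon, an internal exon present in 1 isoform and skipped in the other, was found in 102 of the 195 (52.3%) and in 42.5% of the others. An alternative first exon was found in 52 (26.7%, against 16.7%) and an alternative last exon in 43 (22.1%, against 7.56%). Alternative donor and alternative acceptor splice sites were each found in 6 (3.08%), against 15.9% and 14.0% of the others. Retained introns were found in 8 (4.10%, against 5.22%). A gene may have more than 1 kind. Among the 102 with cassette exons, the exon was only in the isoform that MG lost in 61 genes, only in the isoform that MG gained in 37, and in both in 4.

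**Figure D3:**
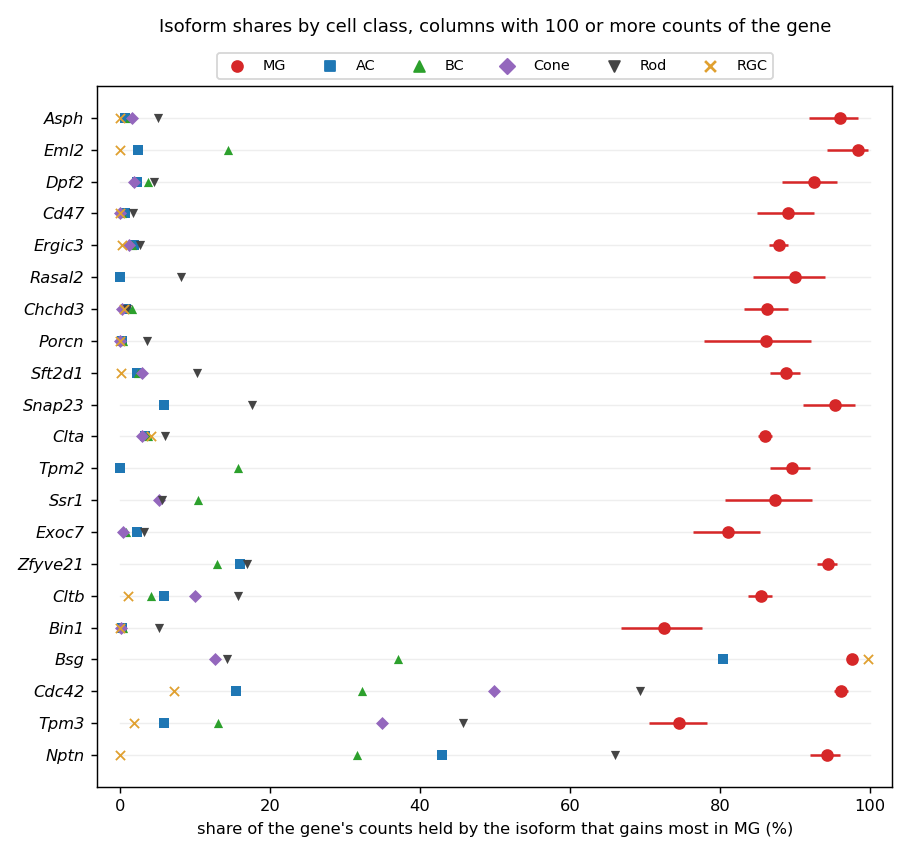
Share of the gene's counts (horizontal axis, percent) held by the isoform that gains most in MG, for the 15 genes with the largest differences, Bsg, and the 5 further genes of the known-isoform list with a difference of 25 points or more. Red circles are MG with exact 95% intervals for counting error, other symbols are the neuron columns and RGC where the gene has 100 or more counts. For most of these genes the neuron columns lie together near 0 and MG near 90%, whereas Bsg, Cdc42, Tpm3 and Nptn spread over the neuron columns.

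The largest difference was in Asph, a calcium-binding and hydroxylase protein of the endoplasmic reticulum. One of its isoforms held 167 of 174 counts in MG (96.0%, 95% interval 91.9 to 98.4) and 0.735% in AC, 1.24% in BC, 1.64% in Cone, 5.16% in Rod and 0 of 528 counts in RGC. The difference was 93.8 points (89.6 to 95.9), and the isoforms differed by a cassette exon and by the last exon. Dpf2, a subunit of BAF chromatin remodelling complexes, had 92.5% of 228 counts in an isoform that held 1.89 to 4.52% in the neuron columns. Cd47, the surface signal that restrains phagocytosis, had 89.1% of 285 counts in an isoform at 0 to 1.77% in neurons. MG lay beyond all 4 neuron columns in each of these genes.

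Several of the other genes with the largest differences encode proteins of membranes and organelles. Ergic3, which cycles between the endoplasmic reticulum and the Golgi, had 2369 of 2697 counts in MG in the isoform without a microexon (87.8%, 86.5 to 89.0), against 1.28 to 2.71% in the neuron columns. Chchd3, a subunit of the complex that shapes mitochondrial cristae, had 86.3% of 548 counts in the isoform without its microexon, against 0.364 to 1.71% in neurons. Sft2d1, a vesicle transport protein, had 88.8% against 2.29 to 10.3%, and Ssr1, a subunit of the translocon-associated complex, had 87.3% against 5.20 to 10.5%. Snap23, a SNARE protein found widely outside neurons, had 95.4% of 174 counts in an isoform at 5.96% in AC and 17.7% in Rod. Exoc7, an exocyst subunit, had 81.1% of 318 counts in an isoform at 0.444 to 3.21% in neurons, and Zfyve21, an endosomal protein, had 94.4% of 1296 counts in an isoform at 13.0 to 17.0%. Porcn, which attaches the fatty acid of Wnt proteins, had 86.1% of 101 counts in the isoform without its short exons, against 0 to 3.68%.

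Eml2, a microtubule-associated protein, and Rasal2, a regulator of Ras, differed by their first exons. Eml2 had 121 of 123 counts in MG in an isoform that held 2.49% in AC and 14.4% in BC, and Rasal2 had 153 of 170 counts in an isoform at 0 in AC and 8.18% in Rod. Only those 2 neuron columns had 100 counts of each gene. In the columns left out, the Eml2 isoform held 20 of 37 counts in Rod and 2 of 3 in Cone. The Rasal2 isoform held 13 of 38 in BC and 0 of 8 in Cone. Tpm2, a tropomyosin, had 89.6% of 540 counts in an isoform at 0 in AC and 15.8% in BC. Acta2 and Tagln, contractile genes that are known to be expressed with Tpm2 in smooth muscle, were also high in the MG column, as described above. Whether the Tpm2 counts came with theirs was not tested.

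Bsg was the gene with most counts in MG among the 195. It encodes basigin, an immunoglobulin-family partner of lactate transporters, and a longer form with an extra immunoglobulin domain is known from photoreceptors. The isoform without the 348-nt exon held 59540 of 61000 counts in MG (97.6%), 80.5% in AC, 37.1% in BC, 12.8% in Cone, 14.2% in Rod and 99.7% in RGC. MG and RGC were therefore close together, AC lay between, and the photoreceptors and bipolar cells were on the other side.

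Of 42 genes listed for isoforms known to depend on cell type, 41 were in the table and 19 had the counts to be compared. In 8 the difference was 25 points or more and in 6 it was 50 points or more, with a median largest difference of 14.8 points over the 19 against 5.65 over all genes compared. Over all 2073 genes compared, 9.41% reached 25 points and 2.89% reached 50 points. The list was drawn up with results of these data known, so its count is a description. The 8 were Eml2, Clta, Cltb, Bin1, Bsg, Cdc42, Tpm3 and Nptn. Cdc42, a small GTPase, has alternative last exons. An isoform with one of them held 96.2% of 1791 counts in MG, 69.4% in Rod, 49.9% in Cone, 32.2% in BC, 15.6% in AC and 7.27% in RGC. In this gene MG stood at one end of a spread and AC and RGC at the other. Tpm3, a tropomyosin, and Nptn, neuroplastin, had 74.6% and 94.2% in MG for isoforms at 5.91 to 45.8% and 31.6 to 66.0% in neurons.

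The other 11 of the 19 did not reach 25 points, and in several of them MG lay among the neurons. The main isoform of Pkm, pyruvate kinase, held 93.4% in MG, 90.6% in BC, 93.6% in Cone and 91.6% in Rod, and it was AC at 38.5% and RGC at 0.170% that stood apart. An isoform of Myl6, a myosin light chain, held 74.1% in MG, between 19.8% in BC and 94.1% in Cone. Snap25, Mapt and Acot9 differed by at most 4.50 points. Snap25 had only 220 counts in MG, against 150239 in AC, and whether these came from RNA of neurons was not tested.

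Exon inclusion was then computed for every internal exon, as the percentage of counts of isoforms that include the exon among those that include it or span it with an intron. With 100 such counts in MG and in at least 2 neuron columns, 2012 exons in 1181 genes could be compared. Exons of 1 gene can share reads, and some are overlapping variants of the same exon, so they are not independent. Inclusion was at least 25 points lower in MG for 88 exons (4.37%) in 68 genes and at least 25 points higher for 49 exons (2.44%) in 44 genes. At 50 points the numbers were 45 and 6. Of the 88, 49 (55.7%) were coding with a length that is a multiple of 3, so that skipping them keeps the reading frame. The same held for 14 of the 49 (28.6%) and for 27.7% of all 2012 exons.

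The differences were spread unevenly over exon lengths. Of 69 microexons, taken as exons of at most 27 nt, 21 (30.4%) in 19 genes were lower in MG and 0 were higher. Of the 1943 longer exons, 67 were lower (3.45%) and 49 higher (2.52%). The count of 0 became 1 at a lower count minimum, without the AC column, without the Rod column or with Ensembl transcripts only. Over the 57 microexons with 100 counts in all 5 columns, the median inclusion was 39.5% in MG, 75.4% in AC, 84.3% in BC, 87.7% in Cone and 88.6% in Rod. MG was lowest for 23 of them and AC for 14. These are medians of each column taken separately. The median of the difference per exon, MG less the neuron mean, was only -3.68 points over the 69 microexons.

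**Figure D4:**
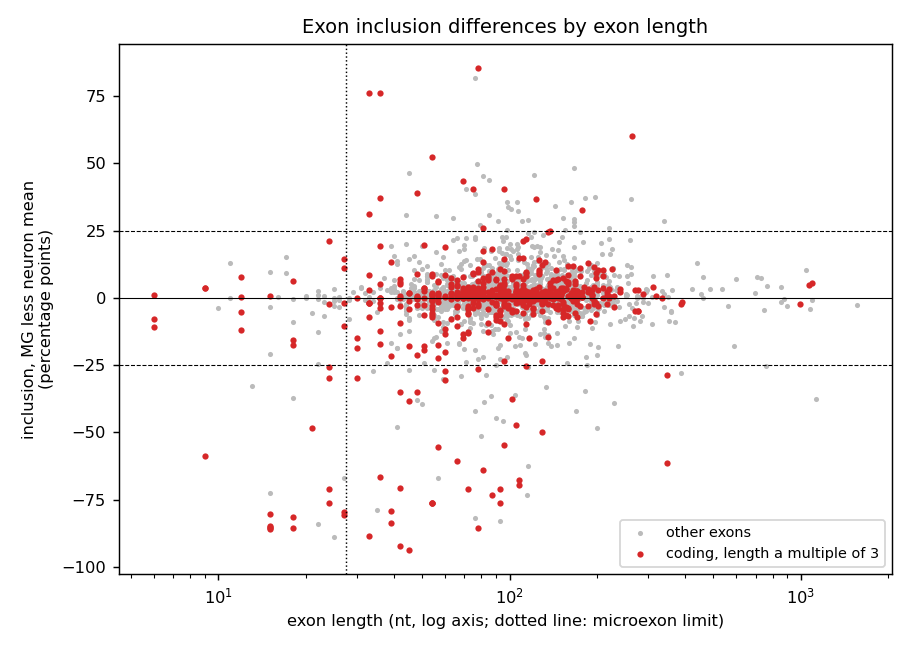
Difference in exon inclusion, MG less the neuron mean (vertical axis, percentage points), against exon length (horizontal axis, nt, log scale) for 2012 exons. Red points are coding exons with a length that is a multiple of 3, dashed lines mark 25 points and the dotted line the microexon limit. Left of the dotted line 21 of 69 exons lie below the lower dashed line and 0 above the upper one, and right of it 67 and 49 of 1943.

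The sequences below show coding exons of 9 to 45 nt that were far lower in MG, chosen after their values were seen to cover a range of lengths, and they are not a ranking. Each is printed as spliced mRNA on GENCODE M21 transcripts of build GRCm38, with the exon in capitals between up to 15 bases of the neighbouring exons in lower case. All were included in most neuron counts and skipped in most MG counts.
Ergic3, chr2:156015377-156015391, plus strand: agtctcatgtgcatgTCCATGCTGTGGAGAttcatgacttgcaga
Chchd3, chr6:32893392-32893406, minus strand: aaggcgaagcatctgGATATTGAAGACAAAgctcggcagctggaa
Porcn, chrX:8203026-8203043, minus strand: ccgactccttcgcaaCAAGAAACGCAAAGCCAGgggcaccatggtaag
Porcn, chrX:8201658-8201672, minus strand: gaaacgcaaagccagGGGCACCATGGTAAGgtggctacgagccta
Ssr1, chr13:37983095-37983109, minus strand: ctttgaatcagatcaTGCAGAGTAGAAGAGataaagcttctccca
Psap, chr10:60297537-60297545, plus strand: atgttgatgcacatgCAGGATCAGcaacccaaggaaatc
Pls3, chrX:75799717-75799743, minus strand: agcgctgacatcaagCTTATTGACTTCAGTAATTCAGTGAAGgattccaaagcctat
Dpf2, chr19:5903731-5903772, minus strand: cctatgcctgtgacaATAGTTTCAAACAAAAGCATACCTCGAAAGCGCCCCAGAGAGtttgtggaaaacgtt
Asph, chr4:9637659-9637703, minus strand: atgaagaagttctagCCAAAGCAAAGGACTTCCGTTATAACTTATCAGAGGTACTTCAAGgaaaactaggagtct

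The microexons of Ergic3, Chchd3 and Ssr1 are 15 nt long, a multiple of 3. In Ergic3 inclusion was 12.2% in MG (95% interval 11.0 to 13.5), 98.1% in AC, 98.3% in BC, 98.7% in Cone and 97.3% in Rod. In Chchd3 it was 13.7% in MG (10.9 to 16.9) and 98.3 to 99.6% in the neuron columns, and in Ssr1 12.7% (7.69 to 19.3) against 89.5 to 94.8%. Porcn has adjacent exons of 18 and 15 nt, with inclusion of 12.9% and 13.9% of 101 counts in MG against 84.3 to 99.0% and 96.3 to 100%. The 9-nt exon of Psap, the precursor of the saposins that activate lysosomal lipid hydrolases, was included in 31.7% of 1418 counts in MG, 90.6% in AC, 98.3% in BC, 96.7% in Cone and 76.9% in Rod. In Pls3, an actin-bundling plastin, the 27-nt exon was included in 4 of 111 counts in MG, 85.0% in AC and 83.6% in BC.

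The other microexons that were lower in MG were mostly separated from all neuron columns as well. For Cd47 (25 nt), Sft2d1 (22 nt), Tpd52l2 (27 nt) and Sh3glb1 (24 nt), inclusion in MG was 10.2%, 11.2%, 15.5% and 18.7%, and no neuron column was under 89.7%. Bin1, amphiphysin 2, which shapes membranes, had a 24-nt exon at 27.5% of 280 counts in MG against 94.8 to 99.8%. Pdlim5, a PDZ and LIM domain protein, had adjacent exons of 15 and 18 nt at 0 of 190 counts in MG, which allows up to 1.92%, against 99.1% in AC and 71.9% in Rod. The columns under 100 counts, left out of its neuron mean, held lower values: 14 of 61 counts in BC and 7 of 13 in Cone. Chpt1, a choline phosphotransferase, had a 27-nt exon at 0 of 173 counts against 56.2 to 75.2%, and Eef1d, a translation elongation factor subunit, a 15-nt exon at 2.68% of 3772 counts against 70.1 to 80.6%. In Fam92a (21 nt) the levels were 5.80% in MG and 43.0 to 63.1% in neurons. In the remaining 4 the neuron columns were unlike each other. Rps24, a ribosomal protein, had its 18-nt exon at 20.8% of 33307 counts in MG, 7.65% in AC, 42.4% in BC, 91.1% in Cone and 90.8% in Rod, so that MG lay inside the neuron range. The exons of Arl6 (13 nt), Nrbp1 (24 nt) and Mars (24 nt) stood at 57.9%, 0 and 4.55% in MG and reached down to 66.6%, 7.49% and 10.8% in the lowest neuron column. In RGC, outside the comparison, the Arl6 exon was included in 26.3% of 460 counts, below MG. The Nrbp1 exon was included in 0 of 104 counts there, as in MG. For Arl6 the inclusion in MG was 0 after subtraction of rod RNA, where the estimated rod counts exceeded the MG counts that include the exon.

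**Figure D5:**
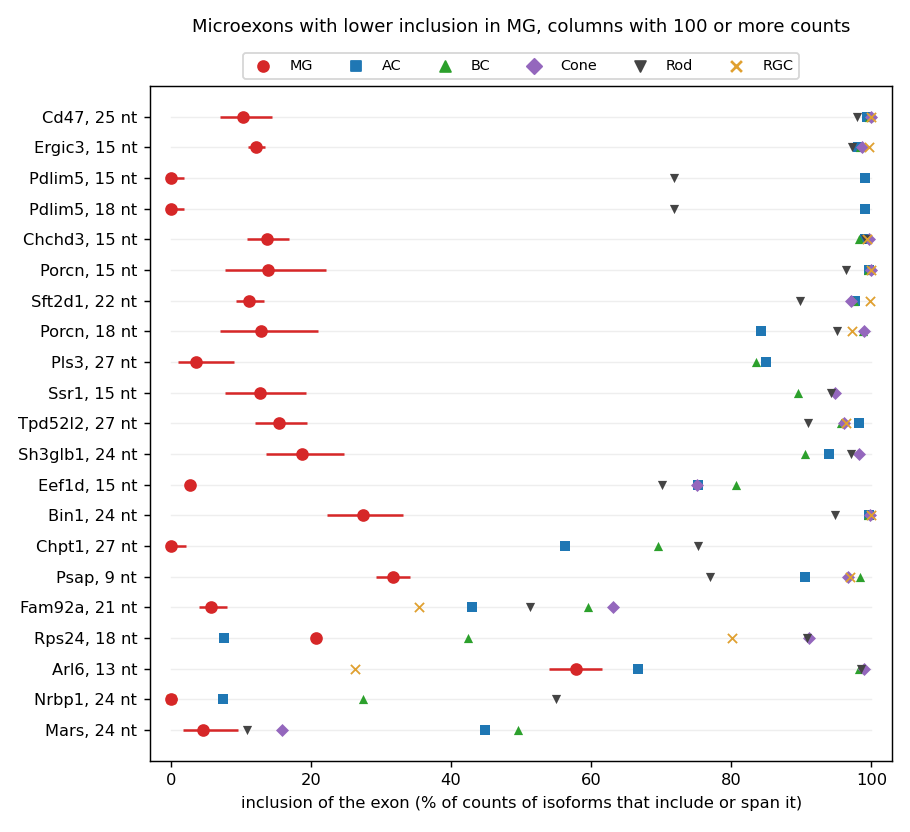
Inclusion (horizontal axis, percent of counts of isoforms that include or span the exon) of the 21 microexons that were at least 25 points lower in MG. Red circles are MG with exact 95% intervals for counting error, and other symbols are columns with 100 or more such counts. MG lies below AC, BC, Cone and Rod, as far as shown, for 20 of the 21 exons, and for Rps24 the AC column lies below MG.

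Residual inclusion in MG was compared with the rod RNA in that column. After the estimated rod RNA was subtracted, 9.36% of the MG counts, inclusion in MG was 4.46% for Ergic3, 0 for Chchd3, 3.72% for Ssr1, 2.96% for Cd47, 4.36% for Sft2d1, 8.46% for the Bin1 microexon, 0 for Arl6, where it had been 57.9%, and 30.4% for Psap. Counts that fell below 0 were set to 0. For Chchd3 and Arl6 the estimated rod counts exceeded the MG counts that include the exon. Their values of 0 therefore come from this limit and are not measured inclusion. The number of microexons lower in MG was 20 of 62 after subtraction, with 0 higher.

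The clathrin light chains, which coat endocytic vesicles with clathrin heavy chain, carry inserts known from neurons, and both genes differed. The 54-nt exon of Clta was included in 12.2% of 5700 counts in MG (11.4 to 13.1), 90.4% in AC, 92.7% in BC, 89.8% in Cone, 80.9% in Rod and 95.8% in RGC. A 36-nt exon of Clta was included in 12.6% in MG, 57.9% in AC, 81.9% in BC, 90.1% in Cone, 87.6% in Rod and 44.3% in RGC. The 54-nt exon of Cltb was included in 14.6% of 1880 counts in MG (13.0 to 16.3), 94.1% in AC, 95.9% in BC, 90.0% in Cone, 84.3% in Rod and 98.9% in RGC. The 54-nt exons of the paralogs match at 37 of 54 bases (68.5%) when aligned without gaps, and the sequences are shown so that they can be compared.
Clta, chr4:44030215-44030268, plus strand: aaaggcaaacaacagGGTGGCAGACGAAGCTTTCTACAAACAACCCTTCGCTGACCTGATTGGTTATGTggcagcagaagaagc
Cltb, chr13:54597026-54597079, minus strand: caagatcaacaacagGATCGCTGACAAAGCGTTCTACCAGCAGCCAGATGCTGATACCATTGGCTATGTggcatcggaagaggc
Clta, chr4:44031400-44031435, plus strand: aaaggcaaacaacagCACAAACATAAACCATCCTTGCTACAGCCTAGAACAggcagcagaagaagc

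Longer exons lower in MG included the 45-nt exon of Asph (4.02% in MG against 94.8 to 99.3%), the 42-nt exon of Dpf2 (4.52% against 95.2 to 97.9%), exons of 39 and 93 nt in Exoc7 (18.9% and 12.9% against 96.8 to 99.6% and 71.6 to 97.8%), and a 93-nt exon of Snap23 (4.60% against 93.9% in AC and 81.5% in Rod). Bin1 had 5 further exons lower in MG. In 4 of them MG was at 27.5% or less and no neuron column was under 84.0%. The fifth, of 129 nt, was included in 7.86% in MG, 96.9% in AC, 94.8% in BC, 35.3% in Cone and 3.81% in Rod, so that MG was close to Rod and far from AC and BC.

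In Tpm2 and Acsl6 an exon was exchanged for another of the same length. Acsl6 encodes a long-chain acyl-CoA synthetase, and the exchanged exons are 78 nt each. The upstream exon was included in 7.38% of 271 counts in MG, 81.6% in AC, 98.5% in BC, 92.7% in Cone and 98.6% in Rod, and the downstream exon in 92.6%, 18.4%, 1.54%, 7.27% and 1.41%. In Tpm2 the exons are 76 nt each, and the exon nearer the start of the gene was included in 89.6% of 540 counts in MG, 0 in AC and 15.8% in BC. The exons of a pair are identical at 46 of 78 bases in Acsl6 (59.0%) and at 41 of 76 in Tpm2 (53.9%), and each pair is shown with the exon typical of MG first.
Acsl6 in MG, chr11:54337071-54337148, plus strand: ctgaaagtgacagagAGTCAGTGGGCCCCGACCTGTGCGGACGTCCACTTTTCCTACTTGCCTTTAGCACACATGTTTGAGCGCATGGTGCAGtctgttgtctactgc
Acsl6 in neurons, chr11:54336936-54337013, plus strand: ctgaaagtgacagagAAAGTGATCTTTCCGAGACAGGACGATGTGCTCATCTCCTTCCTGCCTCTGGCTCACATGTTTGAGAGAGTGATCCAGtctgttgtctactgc
Tpm2 in MG, chr4:43519003-43519078, minus strand: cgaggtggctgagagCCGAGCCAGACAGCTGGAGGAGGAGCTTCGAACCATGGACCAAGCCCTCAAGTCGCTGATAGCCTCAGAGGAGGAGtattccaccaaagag
Tpm2 in neurons, chr4:43518644-43518719, minus strand: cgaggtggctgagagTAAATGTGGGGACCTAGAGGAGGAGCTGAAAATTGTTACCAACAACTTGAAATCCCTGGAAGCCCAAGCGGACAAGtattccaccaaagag

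Exons with higher inclusion in MG were fewer at large differences. Besides the exchanged exons, 4 exons were at least 50 points higher. Lsamp, a neural adhesion protein of the immunoglobulin family, had exons of 36 and 33 nt, both at 94.5% of 768 counts in MG, 4.35% in AC, 9.39% in BC and 41.5% in Rod. Hfe, which regulates iron uptake, had a 264-nt exon at 97.5% of 278 counts against 26.5% in AC and 47.7% in Rod. Atp6v1h, a subunit of the vacuolar proton pump, had a 54-nt exon at 72.4% of 294 counts against 4.20 to 39.0%. These 4 are coding exons with lengths that are multiples of 3.

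Splicing regulators typical of neurons differed among themselves in MG. The list summed to 26.4 CPM in MG, 332 in AC, 79.4 in BC, 50.6 in Cone and 52.9 in Rod. Most of the MG counts were of Celf2 (93 counts, 15.2 CPM against 4.66 to 13.8) and Ptbp2 (36 counts, 5.87 CPM against 5.58 to 18.7), both within 4-fold. Of 16 in the table, 6 reached the level limit (median -4.41), and 4 of these were at least 4-fold lower. Rbfox1 had 1 count in MG and 121 CPM in AC, but no other neuron column was above 0.483 CPM, and its log2 ratio of -7.55 became -1.24 without AC. Celf3 had 1 count in MG against 1.35 to 17.7 CPM. Elavl3 had 0 counts in MG, against 56.7 CPM in AC and 0.138 to 1.66 CPM in the others, at least 30.2-fold lower than the neuron mean, and its log2 bound was -0.68 without AC. Khdrbs2 had 8 counts in MG and 75.4 CPM in AC, and without the AC column its log2 ratio was 0.38. Srrm3 and Srrm4, activators of microexons, had 2 and 3 counts in MG, against 2.45 to 9.87 CPM and 3.09 to 14.6 CPM in the neuron columns, too low for the level limit. Their log2 ratios were -4.15 (counting interval -6.15 to -2.14) and -4.00 (-5.64 to -2.36).

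Among 12 broadly expressed or glial splicing regulators compared (median -1.24), 0 were higher, 4 were lower and 8 were neither. Ptbp1 stood at 14.0 CPM in MG, above AC (5.87), BC (10.3) and Cone (6.57) and below Rod, so MG lay inside the range of the neuron columns. Celf1, Msi1, Tra2b and Khdrbs1 were lower, with log2 ratios of -3.05, -3.44, -3.10 and -2.11. That of Khdrbs1 was -1.67 without Rod and -1.94 without AC. Esrp1, a regulator known from epithelia, had 59 counts in MG (9.62 CPM) and at most 0.166 CPM in a neuron column, just under the level limit. Whether its counts came with those of the pigment epithelium genes was not tested.

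MG was not further from every neuron class than the neurons were from each other. With all columns thinned to equal depth and 1368 genes compared in all 5, 206 genes (15.1%) had an isoform that differed by 25 points or more between MG and AC, 115 (8.41%) between MG and Rod, 92 (6.73%) between MG and BC and 90 (6.58%) between MG and Cone. Among neurons, AC differed from Rod in 184 genes, from Cone in 178 and from BC in 103. BC differed from Rod in 84 and from Cone in 55, and Cone and Rod differed in 21 (1.54%). The number for MG and AC was the highest of the 10 pairs, and the numbers for MG and the other classes lay below those for AC and the photoreceptors. Each column enters 4 pairs, so the counts are not independent. Rod RNA was not subtracted from MG in this comparison, and its part in the numbers for MG was not tested.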

How the data were processed

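Retinal single-cell cDNA from a 10x Genomics workflow was sequenced on a nanopore PromethION, per the labels' protocols. The authors deposited raw whole-number counts per isoform for 6 cell classes, and isoform models whose source field names FLAIR, per the file headers. The build is mm10 (GRCm38), per the submitters' processing notes. The aligner's settings, cell calling and the libraries behind each column are not given in the sources used here. The deposited models were exactly the isoforms with a count in Rod: 36426 of 44325. A further 1241 isoforms took exons from GENCODE M21, and 6658 without exons were left out of structural counts. All 14789 models with an Ensembl identifier had the introns of M21. Symbols were found for 13448 of 13452 Ensembl genes.

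Levels were counts divided by the column total and multiplied by 1000000. A gene was called at 4-fold, with a count of 0 in MG set to 3 counts (0.489 CPM). Isoform shares were called at 25 percentage points. Exon inclusion used isoforms that contain the exact exon or span it with an intron. Intervals at 95% were Poisson-based for levels and Clopper-Pearson for shares, with Wilson limits combined for differences of shares. Reads without a stated molecular identifier are not independent molecules. Rod RNA was subtracted from MG in proportion to the summed rod markers, and counts below 0 were set to 0. The same fraction was applied to every gene, although the MG to Rod ratio was lower for Gnat1 than for Sag. Named genes were the 12 highest and 8 lowest level ratios at 100 CPM or more, the 15 largest share differences, the called gene with most counts in MG, and members of the lists. Members and lists were chosen with earlier results of these data known. The scripts were tested on simulated data. Python 3.11.15, pandas 2.3.3, numpy 2.4.6, scipy 1.17.1 and matplotlib 3.10.9 were used. Of the listed genes, Cd36, Cdh2, Cdh5, Cldn5, Cplx2, Cspg4, Ctgf, Cyr61, Ier2, Itm2c, Kcnj16, Klf4, Lhx1, Notch1, Nova2, Pax2, Pdgfrb, Rbm47, Sept11, Sept4, Sox2 and Tpm3-rs7 were not analysed here. Single values of some list members are not reported here, and their lists' counts and medians include them.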

Additional observations from a re-analysis of the deposited data

How the results depend on the processing

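No paired analysis was possible because each cell class is 1 column, and for the same reason no replicate could be left out. Of 92 recomputed summary counts, 66 stayed within 1.5 times the count in the report and 26 did not. For levels, the set against the highest neuron column gave 1867 genes lower (22.1% of called genes were then higher), a limit of 1 CPM gave 1720 higher and 1792 lower, a limit of 100 CPM gave 231 and 153, 2-fold gave 1467 lower and 8-fold 344 lower. For isoforms, 50 counts gave 339 genes, 500 counts gave 49, 50 percentage points gave 60 and Ensembl transcripts only gave 119. Without AC 161 genes were called, of which 128 were among the 195, and at equal depth 135, of which 119 were. Alternatives for exons were chosen after seeing the data, as was the exon measure itself. With 500 counts 24 exons were lower, 7 higher and 8 microexons lower, and at 50 points 45 and 6. Microexons of at most 15 nt gave 8 lower, and those of at most 51 nt gave 38 lower and 7 higher. Ensembl transcripts only gave 22 exons higher and 11 microexons lower, and equal depth gave 32 exons higher. The count of 0 microexons higher became 1 with 50 counts, without AC, without Rod and with Ensembl transcripts only. Among genes named above, log2 ratios that changed sign were those of Khdrbs2 (0.38) and Crabp1 (1.25) without AC. Without Rod they were those of Aqp1 (0.54), Pde6a (0.97), Pde6b (0.93) and Cnga1 (0.62). Members of the marker lists that are not named above changed sign as well. They were Thy1 (1.04) without AC, Pcp2 (0.48) and Gng13 (0.21) without BC, and Gngt2 (0.56) without Cone. These genes are high in the column left out. Changed limits on counts, CPM, fold, points or exon length let fewer or more genes pass by construction, the Ensembl and equal-depth alternatives compare fewer exons or genes, and for the remaining changes the cause was not tested. Depth limited shares most for genes near 100 counts in MG, as for Porcn, whose 86.1% of 101 counts had an exact interval of 77.8 to 92.2%.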

Other observations

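Slc1a2 belongs to the glutamate and GABA list, and Rab13, Vdac3, Lcn2 and Cntn1 were picked after their values were seen and lie outside the rule that named genes. Slc1a2, a glutamate transporter, was within 4-fold of the neurons in level but not in isoform: an isoform with another last exon held 63.7% of 124 counts in MG and 1.42% in the neuron mean. An isoform of Rab13, a small GTPase of membrane traffic, with another first exon held 96.1% of 1026 counts in MG against 17.6%. In Vdac3, a channel of the outer mitochondrial membrane, an isoform with another donor splice site held 83.0% of 2308 counts against 4.54%. For Lcn2, an iron-binding secreted protein, the shares were 99.8% of 521 counts and 24.3%, and for Cntn1, a neural adhesion protein, 80.9% and 23.7%.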
